A study of Mus musculus with 183 samples.

Results

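AVEN, known as an inhibitor of apoptosis, was studied here as a partner of the SKI complex, the helicase assembly that feeds RNA into the cytoplasmic exosome for decay from the 3′ end. Loss of AVEN was examined here through the speed at which RNAs disappeared from mouse embryonic stem cells (mESCs) after transcription was blocked. The measurements were 23 RNA-seq libraries of 2 clones without 4-hydroxytamoxifen (4OHT, day 0), chosen by their labels out of 47 half-life libraries and 183 samples in the series. All genes with enough reads were compared between the clones, 17766 in total, and were then read by gene family and by half-life class.

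Actinomycin D intercalates into DNA and stops RNA polymerases, so RNA levels after its addition follow decay. Cytoplasmic mRNAs usually lose the poly(A) tail first and are then removed from the 5′ end by decapping and XRN1, or from the 3′ end by the exosome with the SKI complex, whose helicase is SKIV2L. Replication-dependent histone mRNAs lack a poly(A) tail, end in a conserved stem-loop bound by SLBP, and are rapidly degraded when DNA synthesis stops.

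Clone 5F was Rosa26Cre-ERT2/- Skiv2lfl/fl, with loxP sites around Skiv2l exons that are removed only after 4OHT. Clone 7E was labelled Aven-/- together with 3xFLAG-Avi tags on both Skiv2l alleles and Rosa26Cre-ERT2/BirA-V6, which the study's list of cell lines writes as BirA-V5. Other labels of the same clone add Skiv2lfl/fl, as the study describes for its conditional lines without AVEN. Cells took up actinomycin D for 120, 240 or 360 min, and mock cells (0 min) had solvent alone for the longest of these times. Each group had 3 libraries, except clone 5F at 120 min, where 2 were available here and the remaining replicate was not analysed here. The study calls the replicates technical, so p-values measure the spread between libraries of 1 clone each. Loss of AVEN, the SKIV2L tag, BirA and any other difference between the clones cannot be told apart.

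The Cas9 targets that define the clones are shown because they mark the edited sites in Aven and Skiv2l. Positions are on GRCm38 and exon numbers are those of Gencode M21, and the capitals mark the PAM. The Aven targets lie in exon 3 (chr2:112625181-112625200, + strand) and exon 6 (chr2:112630912-112630931, + strand) of 6 exons. The Skiv2l targets, used to insert loxP, lie in intron 10 (chr17:34846312-34846331, - strand) and intron 17 (chr17:34844195-34844214, - strand) of a gene of 28 exons.
Aven exon 3: gctgaggagaaagaatgggaTGG
Aven exon 6: agagtgcctgaagcaaatgcTGG
Skiv2l intron 10: gacctgggctaacttaggaaAGG
Skiv2l intron 17: tctccccttaaccttaaatgGGG

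Aven RNA was low in every library of clone 7E, at 0.636 to 2.99 CPM (reads scaled to a common total per library) against 35.1 to 55 CPM in clone 5F. Skiv2l RNA also differed before any 4OHT, at 31.2 to 40.8 CPM in clone 7E and 147 to 217 CPM in clone 5F. The clones thus differed in Skiv2l RNA as well as in Aven RNA. Libraries held 24540658 to 34208466 counts. Markers of mESCs (8 genes, among them Pou5f1, Sox2 and Nanog) summed to 3280 to 3320 CPM in the mock libraries of clone 5F and to 3120 to 3220 CPM in those of clone 7E. The 7 markers of primitive endoderm summed to 134 to 138 CPM in clone 5F and to 15.3 to 16.8 CPM in clone 7E, where more cells of this type and more RNA per cell cannot be told apart in bulk libraries, and those of epiblast and germ layers to 98.3 to 100 CPM and 146 to 149 CPM. Trophoblast and feeder markers summed to at most 6.97 CPM in both clones, and 1 feeder marker was at 0 in the 7E mock libraries. The part of these cells in the decay differences was not tested. Within each clone, the library whose title number is a multiple of 4 (1 library at each of 120, 240 and 360 min and none in mock) had the lowest share of reads on the mitochondrial ribosomal RNA mt-Rnr2, 0.222% to 0.664% against 0.857% to 2.8% elsewhere. These libraries were therefore also fitted with their own term and left out, as given beside the counts below.

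The share of the whole RNA pool left was measured against ERCC spike-in RNA that was added to the lysis buffer, and no difference between the clones passed the test. At 120 min, 71.2% ± 1.03 (SD, n = 2) of the mock ratio of gene to ERCC counts was left in clone 5F and 66.2% ± 5.35 (n = 3) in clone 7E. At 240 min the shares were 57.2% ± 9.45 and 56.6% ± 8.09, and at 360 min 45.5% ± 3.26 and 43.2% ± 2.88 (n = 3 each). Two-sided exact permutation tests gave p = 0.3, 0.9 and 0.4, where 0.1 is the smallest p that such groups allow. The library with the title number that is a multiple of 4 was the lowest in all 6 groups. Between libraries with the same replicate number, clone 7E was lower in 7 of 8. Without the multiples of 4, clone 5F was at 71.95% (1 library) and clone 7E at 65.7% and 71.84% at 120 min, the clones overlapped at 240 min (59.85% and 64.98% against 59.5% and 62.85%), and at 360 min they did not (47.07% and 47.75% against 43.08% and 46.15%). These tests do not show that the pools were alike. The gene-level values that follow are relative to the spike-in change common to both clones at each time.

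A straight line in time was fitted first, and its slope is a decay rate in log2 units per hour. Of 17766 genes, 3 decayed more slowly in clone 7E (0.0169% of genes) and 1 decayed faster (0.00563%) by the quasi-likelihood test of edgeR, after Benjamini-Hochberg adjustment over all genes at 0.05, which makes 4 calls in all (0.0225%). At an unadjusted p under 0.05, 466 genes were slower and 403 faster, and the median difference over all genes was 0.00016 log2 per hour. Decay did not follow a straight line closely: the median biological coefficient of variation was 15.34% around the line and 8.154% with each time as its own level. When the slope was taken as a contrast within the second fit, an alternative chosen after the data were seen, 350 genes were slower and 75 faster, and with DESeq2 11 and 4. With scaling factors from all 47 half-life libraries 6 genes were slower. The number of slower genes lay between 1 and 7 when a single library was left out, at 7 without the 240 min library of 5F replicate 3. No gene passed in either direction without the libraries with title numbers that are multiples of 4.

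Stk17b, which encodes a kinase linked to apoptosis, showed the slope difference best. Its normalised read counts (counts scaled by the size and spike-in factors) in clone 5F were 3435, 3104 and 3446 in mock, 1130 and 1078 at 120 min, 400, 483 and 387 at 240 min and 112, 136 and 96 at 360 min. In clone 7E they were 3906, 3747 and 3770, then 1433, 1360 and 1302, then 643, 790 and 660, and at last 304, 335 and 284. At each time, mock included, the 7E libraries lay above the 5F libraries. Of the mock level, 3.45% was left at 360 min in clone 5F and 8.08% in clone 7E. The slope differed by 0.20 log2 per hour (SE 0.0307, adjusted p = 0.0085), with fitted half-lives of 75.1 and 101 min. Ska3, a subunit of the kinetochore complex that holds microtubules in mitosis, differed by 0.13 log2 per hour (SE 0.0228, adjusted p = 0.032). Its counts at 360 min were 494, 495 and 388 in clone 5F and 892, 968 and 814 in clone 7E, from 4718, 4523 and 4556 and from 5144, 4838 and 5195 in mock. The 240 and 120 min libraries of Ska3 were also higher in clone 7E. The remaining slower transcript, D230025D16Rik, which stands outside the naming rule and is given to complete the count, differed by 0.13 log2 per hour (SE 0.0227, adjusted p = 0.045). The calls on Ska3 and D230025D16Rik were both lost with a replicate block (adjusted p = 0.0552 and 0.065) and with each library scaled by its own ERCC counts (0.498 and 0.26). That on D230025D16Rik was also lost with factors from all 47 libraries (0.0784) and with limma-trend (0.053).

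The gene with faster decay was Aven itself (chr2:112492964-112634573). In clone 5F its counts were 1501, 1515 and 1495 in mock and 1003, 992 and 1046 at 360 min, and in clone 7E they were 85, 129 and 87 and then 26, 20 and 12. The reads that remained in clone 7E were few, and by the labels both alleles were edited. Its slope was lower by 0.32 log2 per hour in clone 7E (difference -0.32, SE 0.0444, adjusted p = 0.0030), with half-lives of 663 min in clone 5F and 150 min in clone 7E. Skiv2l decayed with half-lives of 444 and 374 min, and its slope difference of -0.03 did not pass (adjusted p = 1).

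With each time as its own level, the change from mock was compared at 120, 240 and 360 min. These 3 comparisons share the mock libraries. More was left in clone 7E for 18 genes at 120 min (0.101%), 20 at 240 min (0.113%) and 275 at 360 min (1.55%). Less was left for 6 (0.0338%), 10 (0.0563%) and 51 (0.287%), so the calls in either direction were 0.135%, 0.169% and 1.83% of genes. At an unadjusted p under 0.05, the 360 min counts were 1328 and 861. A joint test of the 3 times called 220 genes. Of the genes with more left, 17 of 18 were replication-dependent histones at 120 min and 4 of 275 at 360 min.

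Replication-dependent histone mRNAs made up 17 of the 18 genes with more left in clone 7E at 120 min, where the background over all genes was 0.101%. Of 65 such genes in the list, 57 had enough reads, and 50 of these were higher at 120 min, with a median difference of 1.30 on the log2 scale against 0.0037 over all genes. The 3′ stem-loops of members are shown because they define the family, with capitals for the paired stem and lower case for the loop. They lie at chr13:23764392-23764407 (+ strand) for Hist1h1a, chr13:23747203-23747218 (+) for Hist1h2bb, chr13:23581950-23581965 (+) for Hist1h4d and chr3:96262939-96262954 (- strand) for Hist2h4, all just after the coding sequence on GRCm38.
Hist1h1a: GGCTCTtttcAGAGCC
Hist1h2bb: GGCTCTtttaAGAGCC
Hist1h4d: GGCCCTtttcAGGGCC
Hist2h4: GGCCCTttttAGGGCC

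The form shown for Hist1h1a was the most frequent, in 31 of the tested genes. A search for the histone stem-loop, on the transcribed strand in the 200 bases after the coding sequence, found it in 54 of the 57 tested histone genes (94.7%), in all 17 of those called at 120 min, and in 4 of 14067 other protein-coding genes (0.0284%). Since called and uncalled histones both carry the element, its presence did not separate them.

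Summed over the family, histone mRNA fell to 1.10% ± 0.107 (SD, n = 2) of mock at 120 min in clone 5F, with libraries at 1.03% and 1.18%, and to 3.48% ± 0.28 (n = 3) in clone 7E, with libraries from 3.16% to 3.68%. At 240 min the shares were 0.732% ± 0.0578 and 1.21% ± 0.208, and at 360 min 0.45% ± 0.00919 and 0.599% ± 0.011. The clones did not overlap at any of the times, and their gap narrowed with time. The mock sums themselves were 196700 ± 9330 normalised reads in clone 5F and 284900 ± 19100 in clone 7E. Over 11 polyadenylated replacement histone genes, which are transcribed outside S phase too, 76.2% ± 2.74 and 78.3% ± 0.936 were left at 120 min and no gene was called at any time.

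**Figure D1:**
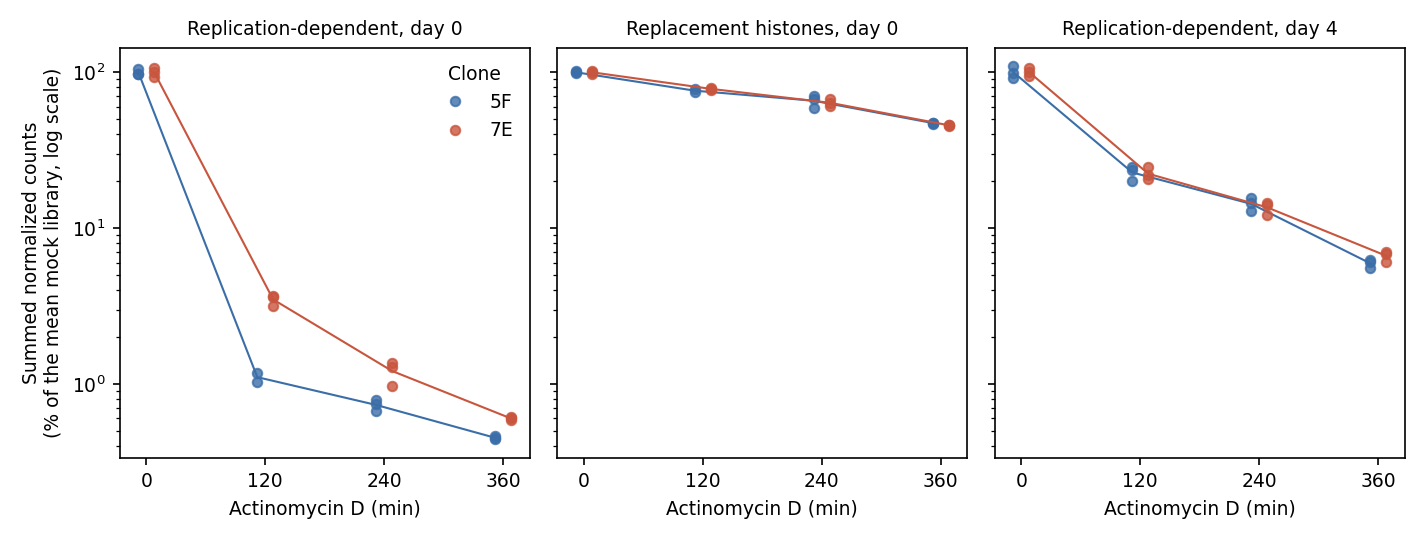
Share of mock normalised reads left (per cent, log axis) against minutes of actinomycin D, for summed replication-dependent histones at day 0 and day 4 and replacement histones at day 0 in clones 5F and 7E. Points are libraries and lines join the means. At 120 min and day 0 the replication-dependent sum was 1.10% of mock in clone 5F and 3.48% in clone 7E, while the replacement histones were at 76.2% and 78.3%.

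Linker histone H1 showed the widest gap among the histone classes. All 5 H1 genes were called at 120 min, and the sum was at 0.809% ± 0.0163 of mock in clone 5F and 4.69% ± 0.415 in clone 7E. Hist1h1a had 26873, 28535 and 28301 normalised reads in the 5F mock libraries, 223 and 174 at 120 min, 98, 158 and 147 at 240 min and 98, 99 and 97 at 360 min. In clone 7E it had 42100, 43112 and 44082 in mock, then 2817, 2618 and 2354, then 747, 906 and 676, and 351, 375 and 385 at 360 min. Every 7E library lay above every 5F library at each time, mock included. The change to 120 min differed by 3.08 log2 (SE 0.17, adjusted p = 2.2e-10) and that to 360 min by 1.29. Hist1h1d differed by 2.64 log2 at 120 min, Hist1h1e by 2.42, Hist1h1b by 2.15 and Hist1h1c by 1.79. Fitted over 120 to 360 min alone, the slope difference was -0.453 log2 per hour for Hist1h1a (adjusted p = 0.00127). It was negative and passed for the other 4 too. In clone 5F little was left to lose in this window, with Hist1h1a at 0.711%, 0.482% and 0.351% of mock. In clone 7E it was at 6.02%, 1.8% and 0.859%. Faster decay in clone 7E and a floor in clone 5F cannot be told apart here.

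The core histones followed with fewer calls, at 2 of 13 H2A genes, 2 of 16 H2B, 4 of 11 H3 and 4 of 12 H4. H2A summed to 0.697% ± 0.149 and 2.22% ± 0.0571 of mock at 120 min, H2B to 0.898% ± 0.119 and 1.51% ± 0.109, H3 to 0.693% ± 0.0341 and 1.69% ± 0.187, and H4 to 2.52% ± 0.497 and 4.17% ± 0.322. In each class the 7E libraries lay above the 5F libraries. Called H2A genes were Hist1h2af (2.76 log2) and Hist1h2ak (1.89), and called H2B genes were Hist1h2bb (2.01) and Hist2h2bb (1.19). Among H3 genes, Hist1h3a (2.70), Hist1h3d (2.15), Hist1h3e (1.37) and Hist1h3b (1.30) passed. Among H4 genes, Hist2h4 (2.64), Hist1h4f (2.45), Hist1h4d (1.50) and Hist4h4 (1.41) passed. Many of these genes are near-identical and reads were counted only where they mapped uniquely, so the values of single histone genes are uncertain.

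Hist2h4 kept its difference to the last time. Its counts in clone 5F were 2139, 2717 and 2132 in mock, 32 and 47 at 120 min, 29, 18 and 23 at 240 min and 22, 13 and 22 at 360 min. In clone 7E they were 3670, 4577 and 3747, then 447, 426 and 403, then 277, 251 and 142, and finally 163, 127 and 139. The clones were apart at each time, and 0.807% and 3.58% were left at 360 min (difference 2.14 log2, adjusted p = 0.00043). Over the 57 histone genes the difference was no longer one-sided at 360 min, with a median of -0.10. With more left 4 were called (7.02%, beside 1.55% over all genes). With less left 1 was called, Hist1h2bk (-1.28), which is 1.75% beside 0.287% over all genes. At 240 min the counts were 7 and 1. The 120 min histone calls numbered 6 without replicate 1 in both clones, which leaves a single 5F library at that time, assumed to vary like the other groups. They numbered 10 without the 120 min library of 5F replicate 1, 12 without the libraries with title numbers that are multiples of 4, and 14 with each library scaled by its own ERCC counts.

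At day 4 of 4OHT, in 24 other libraries of the same clones, the histone gap at 120 min was not seen. The summed histone mRNA was at 22.7% ± 2.27 of mock in clone 5F and 22.3% ± 2.02 in clone 7E, with overlapping libraries (n = 3 each). For H1 the shares were 32.9% ± 3.09 and 30.9% ± 2.7. Of the 18 genes with more left at day 0, 3 had the same sign at day 4 and none was called, where 0 of 17627 genes were called with more left by edgeR, 569 had an unadjusted p under 0.05 in that direction and 8 had less left (0.0454%). In both clones much more histone mRNA was left at day 4 than at day 0. The difference between days in the clone effect was not tested.

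The other gene with more left at 120 min was Jun, an immediate early transcription factor. It had 492, 556 and 536 normalised reads in the 5F mock libraries and 35 and 36 at 120 min, against 589, 651 and 585 and then 83, 98 and 107 in clone 7E. The 120 min libraries of the clones did not overlap (1.23 log2, SE 0.23, adjusted p = 0.019). Against the same mock libraries, the value was 1.12 at 240 min, which was called, and 0.76 at 360 min (adjusted p = 0.073). The 120 min call was lost with own ERCC scaling (adjusted p = 0.152), without the libraries with title numbers that are multiples of 4 (0.0502) and with limma-trend (0.0569).

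Of the 6 genes with less left in clone 7E at 120 min (0.0338% of all genes), Prdm14 and Nr5a2 were among the 24 listed regulators of naive pluripotency, whose median was -0.02 beside 0.0037 over all genes. Prdm14, a transcriptional regulator of naive pluripotency and germ cells, had 872, 812 and 813 reads in the 5F mock libraries and 677 and 667 at 120 min, against 1586, 1644 and 1638 and then 700, 667 and 692 in clone 7E. Its mock level was higher in clone 7E and the 120 min levels overlapped (-0.93 log2, adjusted p = 2.2e-05). The nuclear receptor Nr5a2 was higher in clone 7E in mock, at 5720, 5783 and 5823 against 3756, 3784 and 3837, and closer at 120 min, at 2418, 2295 and 2333 against 2153 and 2103 (-0.46, adjusted p = 0.0018). Cass4 (-1.33), Zfp229 (-0.62) and Stag3 (-0.48) were also called, and all 6 called genes had the same sign at day 4, where 2 were called, Prdm14 among them. With each library scaled by its own ERCC counts the count of 6 fell to 1, and neither Prdm14 (-1.04, adjusted p = 0.0547) nor Nr5a2 (-0.573, adjusted p = 0.679) was called. The count fell to 2 or 3 without any single library among 5F mock 2 and 3, 7E mock 1 and 2, 5F 120 min 1 and 7E 120 min 2 and 3.

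At 360 min, 275 genes had more left in clone 7E, and the 270 among them that entered the half-life classes below fell about evenly into the short-lived (133) and the middle class (137). The 12 largest differences, a choice made after the values were seen, included 3 histones. They were those of Hist2h4, Siah2 (1.36 log2), Hist1h1a, Tmem102 (1.28), Stk17b (1.23), Hist1h2bb (1.22), Gt(ROSA)26Sor (1.04), Pnrc2 (1.03), Pkdcc (0.99), Ciart (0.98), Hps6 (0.98) and Shisa2 (0.97). Gt(ROSA)26Sor is the transcript of the Rosa26 locus, where the clones carry different insertions. Pnrc2, which links the decay factor UPF1 to decapping, fell from 4245, 4051 and 4250 to 266, 265 and 228 in clone 5F and from 3815, 3689 and 3890 to 486, 481 and 438 in clone 7E. The 7E libraries began lower and ended higher, so the order of the clones crossed during decay (adjusted p = 0.00011). Siah2, a ubiquitin ligase, rested on few reads, with 17, 13 and 21 at 360 min in clone 5F and 52, 52 and 39 in clone 7E. Reads at 360 min in clone 5F were as few for Tmem102 (18, 17 and 14) and Gt(ROSA)26Sor (13, 18 and 21). The same held for Hps6 (24, 16 and 16) and Shisa2 (16, 18 and 16).

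The number of genes called at 360 min depended strongly on the scaling and on single libraries. With each library scaled by its own ERCC counts, 8 genes had more and 6 less left, and 87 had more left when the title number term was added to that fit. With the title number term alone, chosen after the data were seen, the counts were 519 and 154. Without replicate 3 of every group the counts were 0 and 0, without replicate 1 they were 6 and 2, and without replicate 2 they were 93 and 22. Leaving out 1 library at a time gave 117 to 362 genes with more left. The counts were 161, 153 and 131 without the 5F mock libraries 1 and 3 and the 360 min library 3, 174, 130 and 176 without the 7E mock libraries 1, 2 and 3, and 117 without the 7E 360 min library 2. The count of 51 genes with less left ranged from 22 to 85, rising to 81 and 85 without the 240 min library 2 of 5F and of 7E, and falling to 33, 30, 22, 22, 30, 24 and 33 without 5F mock 1 and 3, 5F 360 min 3, 7E mock 2 and 7E 360 min 1, 2 and 3.

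**Figure D2:**
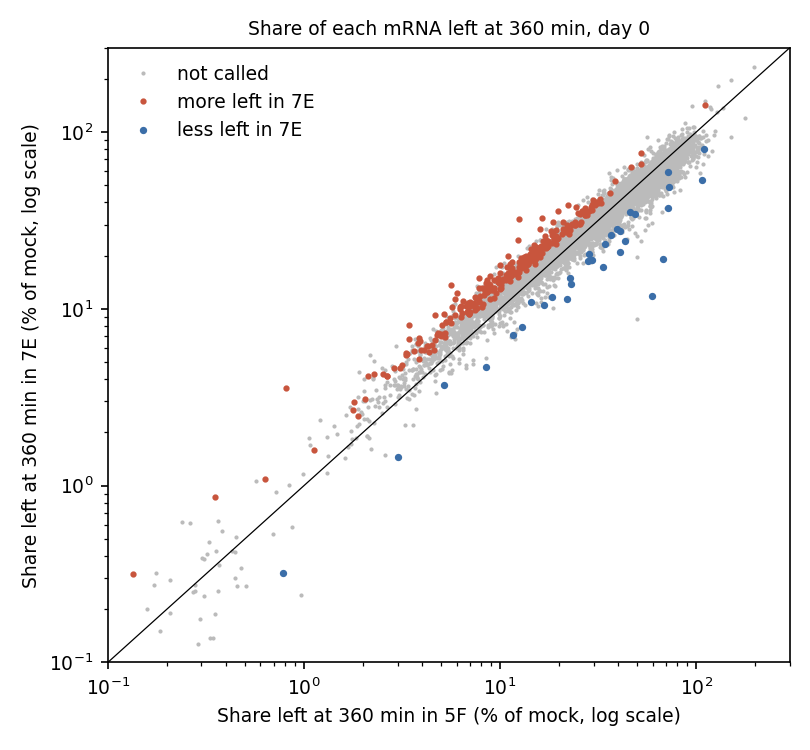
Share of mock normalised reads left at 360 min (per cent, log axes) in clone 5F (x) and clone 7E (y), 1 point per nuclear protein-coding gene with a mean of at least 50 counts, of which 4 fall outside the axes. The coloured genes are those called, with 270 above and 31 below the line of equal shares.

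The median short-lived mRNA had more left in clone 7E and the median long-lived mRNA less. Classes were cut from the day 4 libraries, which the day 0 comparison did not use, as the 10% of 11147 protein-coding genes with the shortest half-life (at or under 128 min) and the 10% with the longest (at or above 481 min), with 1115 genes in each. Of the short-lived class, 133 genes were called with more and 8 with less left at 360 min. The background was 2.42% and 0.278% over the 11147 genes, and 1.55% and 0.287% over all genes. Of the long-lived class, 0 were called with more and 1 with less. The remaining 8917 genes held 137 and 22 calls. The median difference at 360 min was 0.27 log2 for short-lived genes, -0.01 in the middle, -0.10 for long-lived genes and -0.01 over all genes.

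The same shift is seen in the libraries. The median share of short-lived mRNAs left at 360 min was 7.37% to 7.52% in the libraries of clone 5F and 8.64% to 9.14% in those of clone 7E (means 7.43% ± 0.0836 and 8.93% ± 0.257, n = 3). For long-lived mRNAs it was 71% to 74.1% and 66.4% to 69.5% (means 72.3% ± 1.64 and 67.6% ± 1.69). The clones did not overlap in either class, and the order was opposite. These shares use the spike-in factor common to both clones, so the spread of the whole pool between libraries is not in them. That pool was at 41.79% to 47.75% of mock in clone 5F and 40.39% to 46.15% in clone 7E at 360 min. At 120 min the short-lived shares were 25.4% ± 0.687 (n = 2) and 26.0% ± 0.316, which met at 25.8%, and at 240 min they were 13.8% ± 0.16 and 15.3% ± 0.178, which did not. Median fitted half-lives were 97.5 and 107 min for the short-lived class and 839 and 689 min for the long-lived class.

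Across 10 bins of equal size, ordered by day 4 half-life, the median difference at 360 min fell from bin to bin, from 0.268 through 0.17, 0.0907, 0.0379, -0.00316, -0.0203, -0.0523, -0.0634 and -0.0778 to -0.0956 log2. The share of genes with a positive difference went from 84.1% in the first bin to 21.2% in the last. In the libraries, with the same common spike-in factor, the shares left did not overlap between the clones except in the fifth bin. At 240 min the medians ran from 0.149 to -0.0546 and at 120 min from 0.0402 to -0.015. In the day 4 libraries, with bins set by the day 0 slopes, the medians at 360 min ran from 0.341 to -0.213. With each library scaled by its own ERCC counts, the day 0 medians were 0.219 for the short-lived and -0.146 for the long-lived class, so the direction of both was kept.

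**Figure D3:**
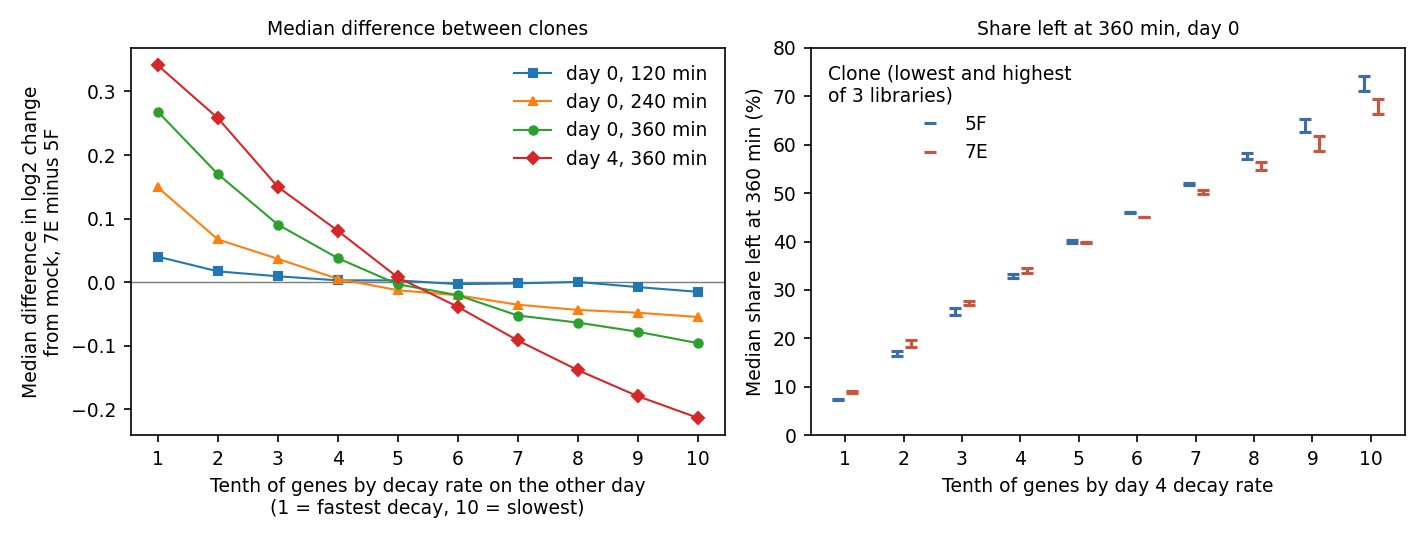
Median difference between clones 7E and 5F in the change from mock (log2, y) in 10 bins of genes from the shortest to the longest half-life (x), at each time of day 0 and at 360 min of day 4 (left), with bins set by libraries of the other day, and the lowest and highest library median of the share left at 360 min of day 0 (per cent) by clone (right). At day 0 and 360 min the median went from 0.268 in the first bin to -0.0956 in the last.

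Immediate early and growth-response genes encode factors induced within minutes of a stimulus and have unstable mRNAs. Of 36 members, 6 (16.7%) had more left at 360 min and 0 less, beside 1.55% and 0.287% over all genes. Their median was 0.35, beside -0.01 over all genes. Of these 36 genes, 28 were in the short-lived class. Among the 28, 5 were called with more left, beside 133 of 1115 in the whole class. Mycn, a MYC-family regulator, had 636, 621 and 519 reads at 360 min in clone 5F and 873, 828 and 678 in clone 7E, from a mock level that was higher in clone 5F. The libraries did not overlap at either time, and the order was turned round (0.68 log2, adjusted p = 0.032). Pim1, a survival kinase, differed by 0.67, Klf6 by 0.51, Dusp6, a phosphatase of ERK, by 0.50 and Spred1, an inhibitor of the same pathway, by 0.35. Jun, called at 120 min, is a member of this list.

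Zinc finger protein genes, a large family of repressors whose mRNAs are often unstable, had 12 of 366 members (3.28%) called with more and 0 with less left at 360 min, beside 1.55% over all genes, with a median of 0.20. Of them, 184 were in the short-lived class. In that subset the median was 0.31 beside 0.27 in the whole class, while the calls with more left were fewer in proportion, at 10 of 184 beside 133 of 1115. Zfp948 differed by 0.85 log2, Zfp868 by 0.77, Zfp141 by 0.63 and Zfp451 by 0.38. Zfp106, the most abundant member, had 59.6% and 55.2% left (-0.11, adjusted p = 0.69). Zfp42, a marker of naive mESCs, fell from 10808, 10239 and 10665 to 1367, 1323 and 1338 in clone 5F and from 18249, 18511 and 18763 to 3078, 3280 and 3142 in clone 7E. Its level was higher in clone 7E throughout, and the share left was higher too, at 17.1% against 12.7% (0.43, adjusted p = 0.012).

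Of 24 naive pluripotency regulators, 3 (12.5%) had more left at 360 min and 0 less, beside 1.55% and 0.287% over all genes. The list's median of -0.0044 was near that of all genes. The 3 called genes were among the 8 members of the short-lived class. Beside Zfp42 these were Klf4 (0.69 log2, 2.88% and 4.65% left) and Sox2 (0.35, 4.61% and 5.88% left), both core transcription factors of mESCs. Pou5f1, the most abundant of the list, had 71.4% and 68.3% left and did not pass (-0.06, adjusted p = 0.90). The epiblast and germ layer markers Otx2 (0.61) and Pax6 (0.45) were called, 2 of 10 tested (20%, beside 1.55% over all genes). Their mock levels were higher in clone 7E, at 2872, 2699 and 2758 reads against 1630, 1639 and 1642 for Otx2. No primitive endoderm marker was called among 12, with a median of 0.027, nor any of 7 feeder or 7 trophoblast markers at 360 min.

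Genes of the integrated stress response had 4 of 30 members (13.3%) with more left and 0 with less at 360 min, beside 1.55% over all genes, with a median of 0.16 beside -0.01. All 4 were among the 9 members of the short-lived class. ATF4 is the transcription factor of this response, and its mRNA fell from 5457, 5359 and 5390 to 488, 400 and 399 reads in clone 5F and from 7209, 7003 and 7321 to 876, 858 and 805 in clone 7E. Clone 7E was higher in every library at both times, and the share left was 11.8% against 7.95% for Atf4 (0.57 log2, SE 0.09, adjusted p = 0.0020). Ifrd1, whose mRNA carries an upstream reading frame, had 228, 217 and 206 reads at 360 min in clone 5F and 337, 308 and 289 in clone 7E (0.57, adjusted p = 0.012). Cebpg, a partner of ATF4, differed by 0.64, and Ppp1r15b, a subunit of the phosphatase that acts on eIF2α, by 0.55. With own ERCC scaling the Atf4 difference was 0.519 (adjusted p = 0.302). Among 21 endoplasmic reticulum chaperones none was called at 360 min, and Calr (0.04, adjusted p = 0.91) and Pdia4 (0.14, adjusted p = 0.69) did not pass.

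**Figure D4:**
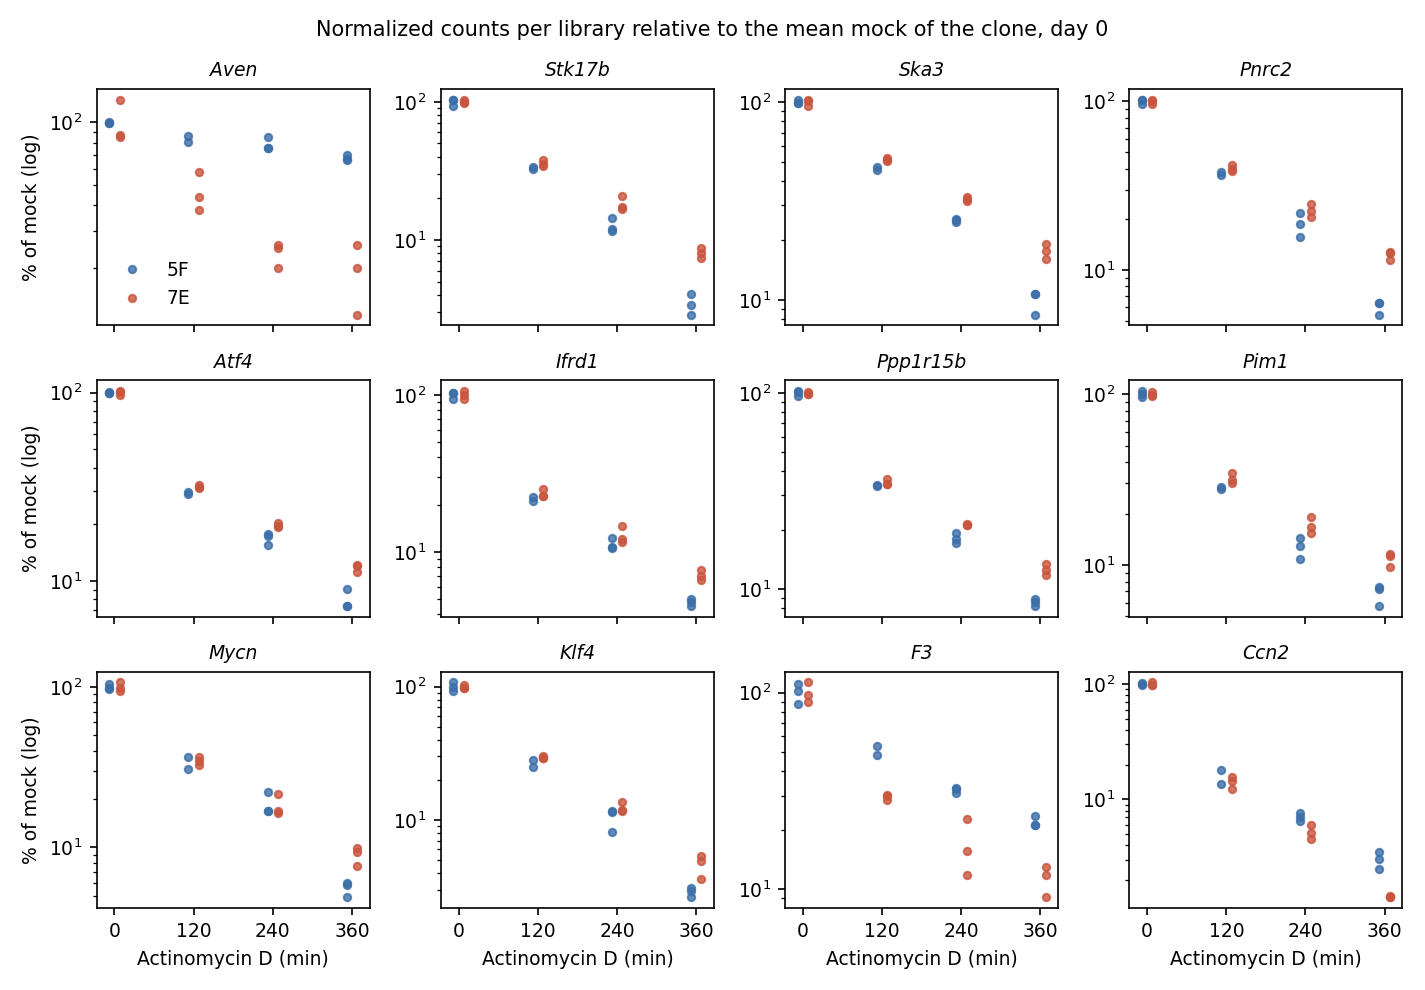
Normalised reads of each day 0 library as a percentage of the mean mock level of its clone (log axis, a range of its own for each gene) against minutes of actinomycin D for 12 genes, with 1 point per library in clones 5F and 7E. For Stk17b the 360 min libraries sit at 2.88% to 4.09% in clone 5F and 7.46% to 8.8% in clone 7E.

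Among factors that act on histone mRNA, 4 of 15 (26.7%) had more left at 360 min and 0 less, beside 1.55% over all genes, with a median of 0.13. These were Npat (0.50 log2), the activator of histone gene transcription, Casp8ap2 (0.47) and Lsm11 (0.40), which serve histone gene expression and 3′ end processing, and Eri1 (0.39), an exonuclease that trims the histone 3′ end. All 4 calls were lost with own ERCC scaling (adjusted p = 0.504, 0.2, 0.732 and 0.469), and those on Casp8ap2 and Lsm11 with a replicate block (0.06 and 0.06). Srrt, the most abundant member, had a value of -0.24 (adjusted p = 0.08). Of 42 DNA replication genes, Cdc6 (0.45) and Ccne1 (0.31), which act at the start of S phase, had more left (4.76%). Of 31 mitosis genes, Sgo1 (0.59), the protector of cohesin at centromeres, had more left (3.23%). Of 25 p53 targets, Trp53inp1 (0.45) was called (4%). The share over all genes was 1.55%.

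Genes of the decay machinery were called at 360 min about as often as all genes, at 2 of 84 (2.38%) beside 1.83%. Of 21 deadenylase genes, Cnot2, a subunit of the CCR4-NOT complex, was called with more left (0.38 log2, 22.5% against 17.3%), while the scaffold Cnot1 had a value of -0.02. In the list of the SKI complex and its interactors, Aven was the only gene of 7 called. None of 17 exosome, 21 decapping or 18 nonsense-mediated decay genes was called at 360 min, as for Dis3 (0.04) and Xrn2 (-0.04). Of 8 apoptosis genes linked to AVEN none was called, and Mcl1, a short-lived survival factor, had 11.8% and 13.2% left (0.16, adjusted p = 0.52).

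Genes for ribosomes, translation and respiration had medians below 0, and 1 of 182 was called at 360 min (0.549%, beside 1.83% over all genes). At 360 min the median was -0.09 over 87 cytosolic ribosomal protein genes, -0.08 over 19 translation factors of the same regulated class and -0.08 over 76 nuclear genes of the respiratory chain. Of these, 4, 1 and 34 were in the long-lived class and 5, 0 and 2 in the short-lived class. The shares left in the libraries overlapped for ribosomal proteins, at 54.8% to 62% in clone 5F and 52.5% to 57.1% in clone 7E. Single members such as Rpl4 (-0.10), Eef2 (-0.15) and Atp5b (-0.09) did not pass. Rpl3 was the called exception, with 154, 121 and 150 reads left in clone 5F from 2736, 2876 and 2577 and 140, 144 and 144 in clone 7E from 3845, 4063 and 3608. The levels at 360 min overlapped and the mock level was higher in clone 7E (-0.48 log2, adjusted p = 0.020). Rpl3 was unlike its list, with a mean of 2730 mock reads in clone 5F against 127000 for Rpl4. At 120 min 10.2% of it was left in clone 5F, where the list median was 79.0%. Reads were counted only where they mapped uniquely, and whether those of Rpl3 come from its mature mRNA was not tested. Its value is therefore uncertain.

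Of the 51 genes with less left at 360 min, 34 were protein-coding. Small nucleolar RNAs (snoRNAs), which guide modification of ribosomal RNA, had 3 of 58 (5.17%) called with less left and 0 with more. Over all genes these shares were 0.287% and 1.55%. The snoRNA median was -0.35. Snord17 fell from 5979, 5922 and 6099 reads to 4580, 4371 and 5007 in clone 5F and from 7561, 7015 and 5785 to 3174, 3104 and 2859 in clone 7E, and the 360 min libraries did not overlap (-0.79, adjusted p = 0.013). Snord104 (-0.76) and Snora73b (-0.72) were the others, and Snord17 and Snora73b had positive values at day 4 (0.55 and 0.31) that did not pass. snoRNAs lie inside host introns and are short, so reads of host transcripts and of snoRNAs cannot be told apart here. Of 16 snoRNA host genes and 22 long noncoding RNAs none was called.

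Protein-coding genes with less left included Ccn2, a matricellular target of YAP (-1.05 log2), and F3, tissue factor (-0.96). F3 had 940, 808 and 1030 reads in the 5F mock libraries and 255, 236 and 296 in clone 7E, and fell to 197, 218 and 198 and to 34, 31 and 24. Its level was lower in clone 7E in every library, and 22.1% and 11.3% were left. Slc15a1 (-0.98), Cblc (-0.96), Cemip (-0.95), Nt5dc3 (-0.85) and Slc37a2 (-0.83) were among the 12 largest, as were Aven, Hist1h2bk and Snord17. Cemip (19, 19 and 16) and Nt5dc3 (15, 15 and 17) had few reads in clone 7E at 360 min. The largest value was that of Ccdc107 (-2.32), which overlaps the RNA gene Rmrp on the opposite strand. The libraries do not keep the strand, and its 7E libraries at 240 min scattered from 276 to 1737 reads, so this value is uncertain.

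Gene features were described without a test over the 11147 protein-coding genes. In 5 bins of transcript GC content the median difference at 360 min fell from 0.0599 in the bin with the lowest GC content to -0.0757 in that with the highest, and calls with more left from 88 to 17. Half-life moved with GC content, with a median day 4 half-life of 240 min in the first bin and 302 min in the last, and their parts were not separated. In 5 bins of transcript length the median rose from -0.056 for the shortest to 0.0243 for the longest. Half-life moved with length too, with medians of 347 and 239 min at day 4 in these outer bins, and their parts were not separated. The AU-rich heptamer TATTTAT, searched on the transcribed strand, was present in the 3′ UTR of 30.4% of these genes, 42.8% of short-lived genes, 15.2% of long-lived genes and 40.7% of genes with more left. The median 3′ UTR was 1180, 1360, 625 and 1580 bases long in these sets, and a longer 3′ UTR has more room for a match. The heptamer was also in 41.9% of the 31 genes with less left, so its share was close in both directions. Of the 133 short-lived genes with more left 37.6% had it, beside 42.8% of the whole short-lived class.

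Relative binding to AVEN and other decay factors was set beside the differences, with no test. CRAC, a crosslinking method that sequences RNA fragments bound to a protein, gave relative binding to decay factors for 7240 mRNAs. Among the 5% with the highest relative AVEN binding, 3 of 362 had more and 3 less left at 360 min (0.829% each), with a median of -0.03, beside 225 and 19 of 7232 (3.11% and 0.263%) and a median of -0.0042 over the CRAC table. Among the highest 10% the counts were 17 and 7 of 724 (2.35% and 0.967%), so the share with more left depended on the limit. For SKIV2L the counts were 3 and 0 of 362 (median -0.06), for MTR4, the nuclear exosome helicase, 5 and 0 of 359 (-0.01), and for XRN1 21 and 5 of 361 (0.03). Within the short-lived class, 2 of 31 mRNAs in the highest 5% of AVEN binding had more left (median 0.124) and 11 of 66 in the highest 10% (median 0.252), beside 108 of 674 in that class (median 0.271). The lower values at 5% were thus not seen at 10%. For XRN1 the 5% gave 8 of 55 (median 0.26) and the 10% gave 22 of 104 (median 0.321). At 120 min, 10 of the 18 genes with more left were in the highest 5% for SKIV2L (2.76% of 362, beside 0.249% over the CRAC table). For AVEN, 1 was in the highest 5% (0.276% of 362) and 9 in the highest 10% (1.24% of 724). The AVEN share thus depended on the limit and at 5% was near that of the CRAC table. All of these genes were replication-dependent histones.

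The differences at 360 min were largely seen again in the day 4 libraries, which are other libraries of the same 2 clones with 4OHT added to both. Of the 275 genes with more left, 266 had the same sign at day 4 and 135 were called there. Over all genes, 2.31% were called in that direction and 47.1% of 17192 had a positive value. This background is not matched for half-life, and the median of 270 of the called genes was 119 min in clone 5F. In the bin with the shortest half-life by day 0 slopes, 87.7% of 1114 genes were positive at day 4 and 180 were called. In the next bin these were 88.5% of 1115 and 143. The shared trend with half-life and agreement gene by gene were not separated. Of the 51 with less left, 49 were tested at day 4, 44 had the same sign and 9 were called (background 0.766%). Among the named genes, Ska3 (0.91), Stk17b (0.89), Atf4 (0.74), Ifrd1 (1.17) and Aven (-1.26) were called again at 360 min, and Siah2 (0.32), Klf6 (0.06) and Zfp948 (0.20) were not. As the clones are the same at both days, agreement between days does not separate AVEN from other differences between the clones.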

How the data were processed

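RNA was sequenced from Ribozero-treated total RNA with unstranded libraries. The authors mapped reads to GRCm38 (mm10) with ERCC sequences added, using STAR, and deposited raw counts of uniquely mapped reads per gene. The deposited CRAC values are ratios, the relative binding made by the authors from pooled counts. Columns of the authors' own comparisons were not used, and 0 count columns were left unused. Of 53380 gene IDs, 53274 had a Gencode M21 symbol.

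Counts were scaled by size factors within each time and 1 spike-in factor per time (ERCC sequences with a mean of at least 50 counts), as in the study's half-life method but from the 23 day 0 libraries alone. Factors from all 47 libraries were an alternative. edgeR 4.0.16 (R 4.3.3) tested the interaction of clone with time, linear or as levels, at an adjusted p of 0.05, on genes kept by filterByExpr. DESeq2 1.42.0, limma 3.58.1, other scalings, filters and left-out libraries were alternatives. On simulated counts for these 17766 genes, the slope fit recovered 28 of 100 genes changed by 0.1 log2 per hour and 85 of 100 changed by 0.25, and the 360 min comparison 62 and 99. The changed genes had a mean of at least 100 counts. Variation shared by whole libraries was not simulated, so recovery in the real data may be lower. Fitted half-lives used a pseudocount of 1. Named genes were Aven, Skiv2l, the 8 largest slope differences each way among called genes (a mock mean of at least 100 in each clone, the same sign with each replicate number left out), list representatives, the 3 most abundant histones, Calr, Pdia4, Atf4 and Ifrd1. The 12 largest differences each way at 120 and 360 min and up to 5 called members per list were added after the data were seen. Members and lists were chosen with earlier results of these data known.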

Additional observations from a re-analysis of the deposited data

Results flagged for a closer look

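Each result here was picked out by the test of the difference between the clones itself, the interaction of clone with time in edgeR's quasi-likelihood fit at an adjusted p under 0.05. Groups of 2 or 3 libraries are too small for a test of single outlying libraries, and no explanation of any pattern was tested.

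At day 0 the slope differed for 3 genes with slower and 1 with faster decay in clone 7E. The change from mock differed for 18 genes with more and 6 with less left at 120 min, for 20 and 10 at 240 min and for 275 and 51 at 360 min.

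The slope differences were 0.20 log2 per hour for Stk17b, 0.13 for Ska3, 0.13 for D230025D16Rik and -0.32 for Aven. At 360 min these genes differed by 1.23, 0.82, 0.77 and -1.80 on the log2 scale.

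Histone genes with more left at 120 min were Hist1h1a (3.08), Hist1h2af (2.76), Hist1h3a (2.70), Hist1h1d (2.64), Hist2h4 (2.64), Hist1h4f (2.45), Hist1h1e (2.42), Hist1h1b (2.15), Hist1h3d (2.15), Hist1h2bb (2.01), Hist1h2ak (1.89), Hist1h1c (1.79), Hist1h4d (1.50), Hist4h4 (1.41), Hist1h3e (1.37), Hist1h3b (1.30) and Hist2h2bb (1.19). Those with more left at 360 min were Hist2h4 (2.14), Hist1h1a (1.29), Hist1h2bb (1.22) and Hist1h1e (0.79), and Hist1h2bk (-1.28) had less.

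At 120 min Jun (1.23) had more left, and Cass4 (-1.33), Prdm14 (-0.93), Zfp229 (-0.62), Stag3 (-0.48) and Nr5a2 (-0.46) had less. Stag3 (-0.39) also had less left at 360 min.

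The largest differences with more left at 360 min outside the histones were Siah2 (1.36), Tmem102 (1.28), Gt(ROSA)26Sor (1.04), Pnrc2 (1.03), Pkdcc (0.99), Ciart (0.98), Hps6 (0.98) and Shisa2 (0.97). Those with less left were Ccdc107 (-2.32), Ccn2 (-1.05), Slc15a1 (-0.98), F3 (-0.96), Cblc (-0.96), Cemip (-0.95), Nt5dc3 (-0.85), Slc37a2 (-0.83), Snord17 (-0.79), Snord104 (-0.76), Snora73b (-0.72) and Rpl3 (-0.48).

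Members of the growth-response, zinc finger and pluripotency lists with more left at 360 min were Mycn (0.68), Pim1 (0.67), Klf6 (0.51), Dusp6 (0.50), Spred1 (0.35), Zfp948 (0.85), Zfp868 (0.77), Zfp141 (0.63), Zfp42 (0.43), Zfp451 (0.38), Klf4 (0.69), Sox2 (0.35), Otx2 (0.61) and Pax6 (0.45). Members of the stress, p53, cell cycle, deadenylase and histone factor lists were Cebpg (0.64), Atf4 (0.57), Ifrd1 (0.57), Ppp1r15b (0.55), Trp53inp1 (0.45), Sgo1 (0.59), Cdc6 (0.45), Ccne1 (0.31), Cnot2 (0.38), Npat (0.50), Casp8ap2 (0.47), Lsm11 (0.40) and Eri1 (0.39).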

How the results depend on the processing

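The cause of the changes below was not tested except where fewer libraries or genes explain them. With each library scaled by its own ERCC counts, 1 gene was slower by slope, 1 had less left at 120 min, 8 more and 2 less at 240 min, and 8 more and 6 less at 360 min. In that fit the 360 min medians were 0.219 for the short-lived and -0.146 for the long-lived class, and at day 4 the counts were 30 slower, 210 with more and 6 with less left at 360 min. Slower genes by slope numbered 6 with TMM, 6 with factors from all 47 libraries, 6 with a mean of at least 50 (7 at day 4), 11 with DESeq2 (4 faster) and 0 over 0 to 240 min, and 7 genes were faster over 120 to 360 min. Over 120 to 360 min the slope difference turned negative for Hist1h1a (-0.453), Hist1h1d (-0.529), Hist1h1b (-0.455), Hist1h1e (-0.408) and Hist1h1c (-0.37). Clone 5F held few reads of these 5 genes in that window. DESeq2 gave 69 genes with more and 24 with less left at 240 min and 94 with less at 360 min, and limma-trend 3 with less at 120 min. Classes of 5% had medians of 0.293 and -0.117, and short-lived classes of 20% 0.211.

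Alternatives chosen after seeing the data were the slope contrast within the fit with times as levels (350 slower, 75 faster) and the title number term, which gave 12 genes with less left at 120 min, 56 with more and 25 with less at 240 min, and 519 and 154 at 360 min. Leaving out the libraries with title numbers that are multiples of 4 gave 0 slower and 0 faster genes, 3 with less left at 120 min, 79 with less at 360 min and a short-lived median of 0.293. Own ERCC scaling with the title number term gave 12 and 4 genes at 240 min, 87 with more left at 360 min, and medians of 0.219 and -0.143.

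Leaving out replicate 1, 2 or 3 of every group gave 0 to 1 slower and 0 to 1 faster genes, 6 to 15 with more and 1 to 2 with less left at 120 min, 1 to 6 and 1 to 3 at 240 min, and 0 to 93 and 0 to 22 at 360 min. Histone calls at 120 min were 6 to 15, with a median of 1.16 to 1.54. The class medians were 0.268 to 0.286 and -0.105 to -0.0883 at 360 min, and 0.0475 to 0.0592 and -0.0177 to -0.0118 log2 per hour by slope. At day 4 these omissions gave 0 to 0 slower and 0 to 0 faster genes, and 38 to 40 with more and 2 to 9 with less left at 360 min. Leaving out single libraries gave 1 to 7 slower and 1 to 1 faster genes, 10 to 18 and 2 to 6 at 120 min, 7 to 32 and 4 to 18 at 240 min, and 117 to 362 and 22 to 85 at 360 min. Histone calls were then 10 to 17 (median 1.08 to 1.53), the class medians 0.26 to 0.299 and -0.115 to -0.0802, and the slope medians 0.0372 to 0.0698 and -0.0193 to -0.0108.

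Replicate numbers were treated as pairing the libraries only if every same-numbered pair of deviations correlated above 0.1. The correlations were 0.15 to 0.74 in 10 of 11 pairs and 0.064 in the other, replicate 2 at 360 min, so the limit was missed by 1 pair. Those 10 libraries correlated best with their own number, a hint of pairing from the data and not from the labels. With a replicate block, 1 gene was slower and 1 faster, 17 had more and 5 less left at 120 min, 16 histone genes among them, and 237 and 52 at 360 min. Low read counts limit the late values of histones, Siah2 and Aven.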
